A study of Mus musculus with 57 samples.

Results

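The comparison described here is between mice heterozygous for the Shank3 delta C allele (HT) and their wild-type counterparts (WT), both given vehicle only. Bulk RNA sequencing was done on prefrontal cortex, which lies at the front of the brain and serves planning and social behaviour, from male and female C57BL/6J mice. The mice were exposed to vehicle, lithium or fluoxetine through their mothers' milk over 3 weeks (postnatal days 3 to 24), and the cortex was collected at postnatal day 25. The vehicle groups were chosen by genotype, treatment and sex as labelled, and held 5 HT females, 5 WT females, 3 HT males and 5 WT males, which is 18 of the 56 libraries with a column that matched a sample and of the 57 samples labelled. Both genotypes had the same strain, age and vehicle exposure, so the allele is the labelled difference between them. The drug-treated libraries entered the fit for its estimate of the spread, for the genotype comparison in drug-treated mice, which shares no library with the vehicle one, and for the difference between the vehicle and drug-treated comparisons, which does. The labels name neither litters nor dams, so the p-values measure the spread between these samples and treat pups that may have shared a dam as independent.

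Shank3 is a master scaffold of the postsynaptic density, the protein layer under the receptors of an excitatory synapse. It ties the complexes of AMPA, NMDA and metabotropic glutamate receptors, through partners such as Homer and the SAPAP proteins, to the actin cytoskeleton of the dendritic spine. Loss of one copy of the human gene causes Phelan-McDermid syndrome, which often includes autism and intellectual disability. In the cortex the gene is expressed mainly by neurons.

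Depth was similar across the vehicle libraries, which held between 23562612 and 35174902 reads over the 18088 listed genes, and 18026 genes passed the filter on low values. Levels are given as normalised read counts, that is, reads divided by a size factor of each library. Markers of upper-layer and deep-layer excitatory neurons, interneurons, astrocytes, oligodendrocytes and microglia were detected in every vehicle group, with 0 of the markers of each list at 0 throughout a group. Libraries of 1 group differed in markers of neighbouring tissue. HT vehicle female replicate 1 held choroid plexus transcripts, with 50312 normalised counts of Ttr against at most 202 in the other vehicle libraries. The summed count of the 9 olfactory bulb markers ran from 1090 to 10200 in HT females, from 1140 to 8770 in WT females, from 1410 to 4660 in HT males and from 2490 to 9450 in WT males. In bulk tissue, fewer cells of a type and less RNA per cell cannot be told apart.

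Shank3 itself (ENSMUSG00000022623, chromosome 15, 89499623 to 89560261, GRCm38) was detected in every library. In HT females it was 5748, 8118, 8248, 8005 and 7498 normalised counts, and in WT females 7392, 6022, 7659, 6294 and 7181. In HT males it was 8208, 8048 and 7507, and in WT males 7832, 8404, 8496, 7573 and 7705. The genotypes overlapped in both sexes. HT minus WT on the log2 scale was 0.05 ± 0.09 (SE) with the sexes weighted equally, 0.12 ± 0.12 in females and -0.01 ± 0.14 in males. Nothing in the labels states what the allele deletes, so a count over the whole gene is no check of the genotype labels.

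With the sexes weighted equally, no gene differed between HT and WT at the threshold used throughout, a Benjamini-Hochberg adjusted p below 0.05 in the limma fit. The count was 0 of 18026 genes (0% called), and 1119 genes (6.21%) had an unadjusted p below 0.05, against 901.3 at that rate by chance. edgeR on the recovered reads called 1 gene, Ttr, which was high in the single library with choroid plexus transcripts. A fit of the vehicle groups alone called 1 gene, Cdc42ep1. The smallest p belonged to Acads, which encodes the short-chain acyl-CoA dehydrogenase of fatty acid oxidation, at a log2 fold change of -0.37 ± 0.08 (adjusted p = 0.521). Other genes of small p on the lower side were Lmo2 (-0.29 ± 0.07), the CDC42 effector Cdc42ep1 (-0.48 ± 0.12), Sox9 (-0.41 ± 0.10) and Scrn2 (-0.53 ± 0.13). On the higher side were Klf9 (0.27 ± 0.07), Pkp2 (0.57 ± 0.15), the small heat shock protein gene Hspb7 (0.89 ± 0.23) and the melanocortin receptor gene Mc4r (0.70 ± 0.20). None of these passed the test.

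Of 29 listed genes for Shank partners and scaffolds of the postsynaptic density, 0 were called with the sexes averaged, as over all 18026 genes. Their log2 fold changes lay between -0.25 and 0.34. At an unadjusted p below 0.05, where 6.21% of all genes lay, there were 2 of them. Those were Homer1 (0.34 ± 0.14), which links Shank proteins to metabotropic glutamate receptors, and Abi1 (0.13 ± 0.06), a component of the WAVE complex that drives actin branching. The paralogues Shank1 and Shank2 were at -0.07 ± 0.09 and 0.01 ± 0.07. Dlg4, which encodes PSD-95, was at 31305, 29079 and 25658 normalised counts in HT males and between 24283 and 32670 in WT males, and its log2 fold change was 0.00 ± 0.08. In males, the medians of the 16 AMPA receptor genes (0.05), the 6 tested NMDA receptor genes (0.05), the 7 metabotropic receptor genes (-0.02) and the 22 genes of synaptic adhesion (0.02) lay near the median of all genes (-0.01). Each list had 0 called, beside 0.261% of all genes.

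The genotypes differed in males. In vehicle males 47 of 18026 genes passed the test (0.261% called), 28 higher in HT (0.155%) and 19 lower (0.105%), and 2248 genes (12.5%) had an unadjusted p below 0.05. The median log2 fold change of the called genes was 0.44 for those higher and -0.63 for those lower. The HT and WT male libraries did not overlap in 25 of the 28 and in 17 of the 19, while over all tested genes they did not overlap in 9.53%, with HT higher in 4.69% and lower in 4.84%. The same libraries chose the called genes, so this separation is a description and no further support for the calls. The genes nearest the threshold were Paqr8 (adjusted p = 0.044) and Acap2 (0.0455) inside it and Bicd1, Zfp217 and Hacd3 (0.0514 each) outside it.

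The number of called genes in males depended on single libraries of both genotypes. It was 30, 10 and 1 without HT vehicle male replicate 1, 2 and 3. It was 86, 55, 18, 1 and 16 without WT vehicle male replicate 1, 2, 3, 4 and 5. Of the 47 genes, 0 kept their call in all 18 fits that left out a library. Lmo2 kept it in 17 of them, and was the only gene still called without HT vehicle male replicate 3 or WT vehicle male replicate 4. edgeR on the recovered reads called 40 genes, 38 of them among the 47. Array weights brought it to 960 and the level of olfactory bulb markers as a covariate to 131, and both sets held all 47. It was 20 with a correction for GC content and length and 3 with the immediate early level as a covariate, as given below.

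**Figure D1:**
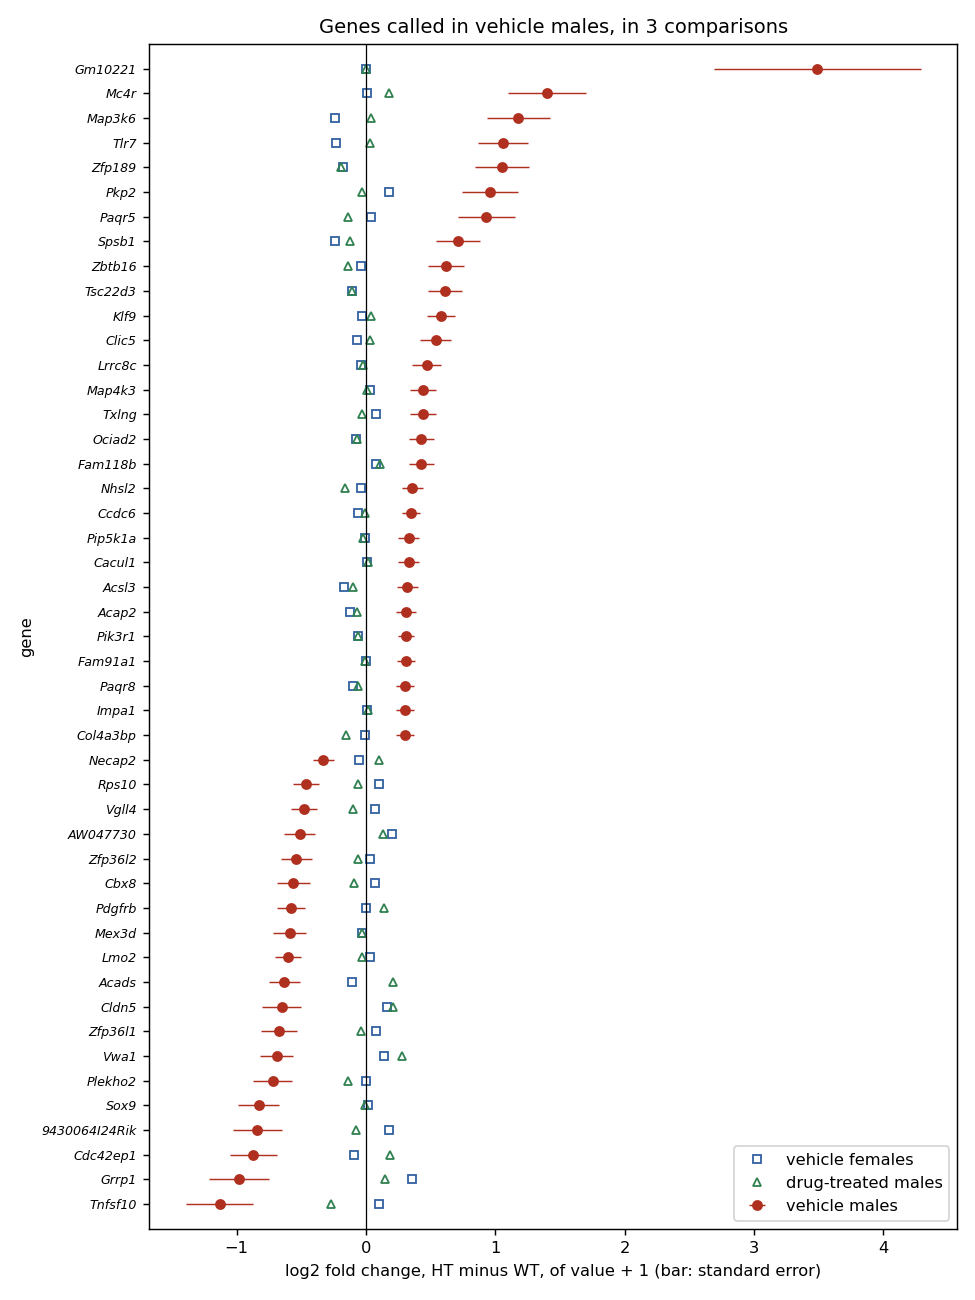
Log2 fold change of HT over WT (x axis, log2 of value + 1) for each of the 47 genes called in vehicle males (y axis), in vehicle males (filled circles, bars show the SE), vehicle females (open squares) and drug-treated males (open triangles). The circles were chosen to lie away from 0, and the squares and triangles scatter around 0, with medians of -0.04 and -0.03 for the 28 higher genes and 0.07 and -0.03 for the 19 lower ones.

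Among the genes higher in HT males, 4 are known targets of glucocorticoid hormones. Glucocorticoids, released by the adrenal cortex under stress and in the daily rhythm, bind a nuclear receptor that attaches to DNA at a palindrome and raises transcription of its targets in neurons, glia and vessels. The called targets were Klf9, a zinc finger transcription factor that also responds to thyroid hormone, Tsc22d3, which encodes the anti-inflammatory protein GILZ, Zbtb16, a zinc finger repressor, and Map3k6, a kinase of the stress-activated MAP kinase cascade. The windows of 250 bases upstream of the RefSeq start sites of 3 of them are printed below 5′ to 3′ (GRCm38.p6). They are shown because these genes moved together. Capitals mark a match to the receptor's palindrome, searched as GNACA and TGTNC separated by any 3 bases, which reads the same on both strands.
Map3k6, chr4:133240568-133240817, plus strand: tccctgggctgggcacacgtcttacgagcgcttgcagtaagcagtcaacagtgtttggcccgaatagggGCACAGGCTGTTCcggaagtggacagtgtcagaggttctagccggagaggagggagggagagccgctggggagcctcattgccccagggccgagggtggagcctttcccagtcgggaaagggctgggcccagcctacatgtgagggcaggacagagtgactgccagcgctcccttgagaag
Klf9, chr19:23140976-23141225, plus strand, no match: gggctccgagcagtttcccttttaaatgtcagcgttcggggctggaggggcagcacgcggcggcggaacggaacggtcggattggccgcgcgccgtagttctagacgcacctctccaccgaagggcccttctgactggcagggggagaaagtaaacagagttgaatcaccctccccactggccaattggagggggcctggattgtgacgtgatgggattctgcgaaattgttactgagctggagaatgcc
Tsc22d3, chrX:140600523-140600772, minus strand, no match: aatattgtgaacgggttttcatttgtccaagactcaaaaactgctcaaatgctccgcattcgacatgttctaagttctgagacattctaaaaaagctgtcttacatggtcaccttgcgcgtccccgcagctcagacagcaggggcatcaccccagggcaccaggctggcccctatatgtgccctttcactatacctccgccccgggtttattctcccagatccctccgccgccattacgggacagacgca
The match upstream of Map3k6 lies 181 to 169 bases before the start site. On the list of 20 glucocorticoid-responsive genes, 19 had a promoter in the table and 3 of those (15.8%) held a match, against 145 of 27025 genes (0.537%) in the whole table, in windows of 250 bases upstream and 50 downstream. The other 2 were Sgk1 and Mt1, shown with 10 bases on each side.
Sgk1, chr10:21993692-21993724, plus strand: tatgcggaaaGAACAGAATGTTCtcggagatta
Mt1, chr8:94178985-94179017, plus strand: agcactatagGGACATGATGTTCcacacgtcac
A match is a description of these letters and not a measured site. Among the called genes with a promoter in the table, 1 of 19 higher ones (Map3k6) and 0 of 11 lower ones held a match. The list was drawn up as hormone-responsive genes, and Map3k6 was put on it with its male value known. Its share of matches therefore does not bear on the male calls.

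Klf9 (chromosome 19, 23141226 to 23168134) was at 8472, 8734 and 10459 normalised counts in HT males and at 7143, 7190, 6085, 4774 and 5951 in WT males. Every HT male exceeded every WT male, and the log2 fold change was 0.58 ± 0.11 (adjusted p = 0.00882). In females it lay between 6921 and 7866 in HT and between 6992 and 9067 in WT, at -0.03 ± 0.09.

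Tsc22d3 (chromosome X, 140539528 to 140600659) was at 2468, 2113 and 2095 in HT males and at 1685, 1320, 1382, 1403 and 1516 in WT males. The groups did not overlap, with a log2 fold change of 0.61 ± 0.13 (adjusted p = 0.0227), and the value in females was -0.11 ± 0.11. Zbtb16 (chromosome 9, 48654297 to 48836222) was at 1183, 1176 and 1226 in HT males and at 1079, 857, 794, 595 and 650 in WT males, a log2 fold change of 0.62 ± 0.14 (adjusted p = 0.0303). Map3k6 (chromosome 4, 133240818 to 133252929) was at 127, 143 and 128 in HT males and at 87.9, 70.5, 60, 43 and 41.5 in WT males, a log2 fold change of 1.18 ± 0.24 (adjusted p = 0.0153). In both genes the WT library nearest to HT was replicate 1.

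Of the 20 tested genes on the glucocorticoid list, 4 were called higher and 0 lower in males (0.155% and 0.105% of all genes). Their median log2 fold change was 0.44 in males and -0.04 in females, beside -0.01 and 0.00 over all genes. In males 15 were above 0, with 9 higher and 2 lower at an unadjusted p below 0.05, against 6.84% and 5.63% of all genes. In females none of the 20 had an unadjusted p below 0.05. Under 13 other settings of the fit the male median stayed between 0.37 and 0.51, and with any 1 library left out between 0.37 and 0.46. Map3k6 had been put on the list with its value in males known.

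Some well-known targets on the list did not pass. Fkbp5, a co-chaperone that lowers the hormone affinity of the receptor, was at 1318, 1274 and 1300 in HT males and at 1298, 613, 637, 701 and 705 in WT males (0.77 ± 0.21, adjusted p = 0.097). WT male replicate 1 was as high as the HT males and the other 4 were lower than all of them. Sgk1, a kinase of ion transport, was at 2204, 2161 and 2056 in HT males and at 1342, 1343, 1562, 1493 and 1632 in WT males (0.54 ± 0.16, adjusted p = 0.15). The sulfotransferase gene Sult1a1 (0.96 ± 0.25, adjusted p = 0.0751) and Hif3a (0.89 ± 0.26, adjusted p = 0.142), a hypoxia-inducible factor subunit, missed the threshold too. The clock gene Per1 was at -0.15 ± 0.18, the cell cycle inhibitor gene Cdkn1a at 0.06 ± 0.22, the metallothionein gene Mt1 at 0.07 ± 0.17 and the GTPase gene Arl4d at -0.69 ± 0.22 (adjusted p = 0.195).

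Another set of transcripts varied between the same libraries. Immediate early genes are switched on within minutes by neuronal firing, and Arc, one of them, fell into separate ranges in the vehicle libraries. Arc was at 983, 2417 and 1313 normalised counts in HT males and at 952, 5474, 4822, 5869 and 6324 in WT males. In HT females it was at 882, 4481, 4523, 4330 and 6128, and in WT females at 1416, 948, 6206, 4619 and 5067. In all, 7 of the 18 libraries lay between 882 and 2417 and the other 11 between 4330 and 6324. The 7 were 3 of 3 HT males, 1 of 5 WT males, 1 of 5 HT females and 2 of 5 WT females, so low Arc also occurred in WT mice. Fkbp5 lay between 934 and 1318 in those 7 libraries and between 547 and 972 in the other 11, and the 6 highest Fkbp5 values of the 18 were all among the 7.

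The 32 immediate early genes had a median log2 fold change that was -0.40 for males (-0.26 without HT vehicle male replicate 1) and 0.07 for females. In males 0 of them were called. At an unadjusted p below 0.05, 15 were lower and 2 higher, beside 5.63% and 6.84% of all genes. Btg2, an antiproliferative early gene, was at 312, 420 and 343 in HT males and at 289, 678, 891, 1332 and 1097 in WT males (-1.10 ± 0.30, adjusted p = 0.1). Fos was at -1.25 ± 0.42 (adjusted p = 0.21) and Fosb, at 194, 356 and 336 in HT males, was at 362, 376, 436, 963 and 991 in WT males. Homer1, which has an early-induced short form and counts here as 1 gene, was at 5177, 7640 and 9337 in HT males and between 3590 and 6062 in WT males (0.66 ± 0.21, adjusted p = 0.182), the opposite direction to the list.

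With the immediate early level of each library as a covariate, an alternative chosen after seeing the data, males had 3 called genes, all among the 47: Zfp189 (1.23, adjusted p = 0.0155), Lmo2 (-0.58, adjusted p = 0.0273) and Acads (-0.65, adjusted p = 0.0406). The 4 called glucocorticoid targets lost their calls. Their log2 fold changes stayed the same for Tsc22d3 and fell for Klf9 (from 0.58), Zbtb16 (from 0.62) and Map3k6 (from 1.18). Klf9 was at 0.53 (adjusted p = 0.0933), Tsc22d3 at 0.61 (0.114), Zbtb16 at 0.48 (0.201) and Map3k6 at 1.04 (0.134). The median of the glucocorticoid list was 0.37 in that fit. Beyond this fit, the part of the immediate early level in the difference between the male groups was not tested.

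**Figure D2:**
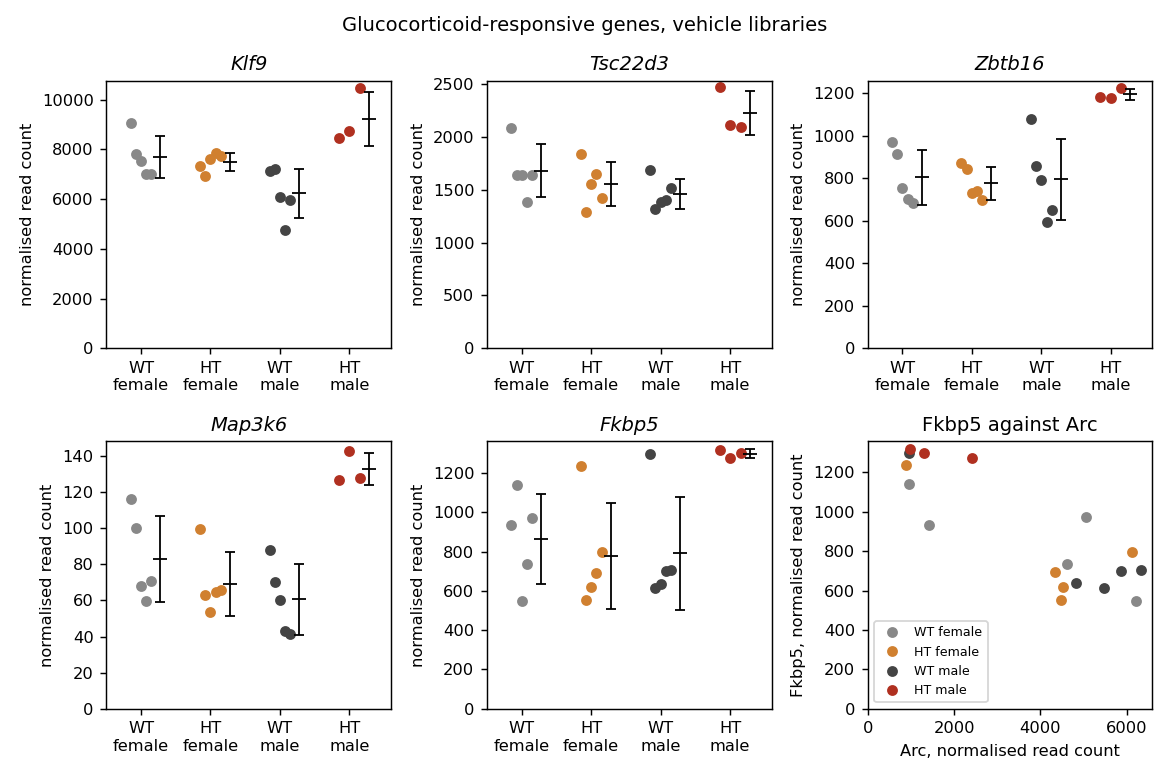
Normalised read counts (y axes, from 0) of Klf9, Tsc22d3, Zbtb16, Map3k6 and Fkbp5 in each vehicle library by group, with the group mean and SD beside the points, and, in the last panel, Fkbp5 (y axis) against Arc (x axis) in the same 18 libraries. HT males lie above all WT males for the 4 called genes, and the 7 libraries with Arc of 2417 or less include 1 WT male, 1 HT female and 2 WT females beside the 3 HT males.

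Beyond this group, the genes higher in HT males included receptors and signalling proteins. Mc4r, the melanocortin receptor that curbs feeding, had the largest fold change of a named gene. It was at 134, 114 and 120 in HT males and at 45.8, 59.3, 56.6, 26 and 49.6 in WT males, a log2 fold change of 1.40 ± 0.30 (adjusted p = 0.0227), and at 0.01 ± 0.26 in females. No WT male reached the lowest HT male. The other 14 tested genes of melanocortin and feeding signals were not called, and the list's median was 0.07.

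Tlr7, an endosomal sensor of single-stranded RNA, was at 195, 148 and 184 in HT males and at 124, 103, 56.6, 76.1 and 73 in WT males (1.06 ± 0.19, adjusted p = 0.00882), without overlap. It was the 1 of 31 innate immune genes to be called, beside 0.261% of all genes. In males 25 of that list were below 0, with a median of -0.15. Zfp189, a zinc finger transcription factor, was at 363, 300 and 484 in HT males and at 174, 189, 167, 151 and 228 in WT males (1.05 ± 0.21, adjusted p = 0.0168).

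Several called genes act in phosphoinositide and lipid signalling. Pik3r1, the regulatory subunit of PI3 kinase, was at 6046, 5872 and 6668 in HT males and at 5385, 5233, 4979, 4546 and 4922 in WT males (0.31 ± 0.06, adjusted p = 0.0179), a small but separated difference. Impa1, the inositol monophosphatase that lithium inhibits, was at 0.30 ± 0.07 (adjusted p = 0.0436), and lost its call in 7 of the 13 other settings. Pip5k1a, which makes the phosphoinositide PIP2, was at 0.33, the ceramide transfer protein gene Col4a3bp at 0.30 and the acyl-CoA synthetase gene Acsl3 at 0.32, all called. Of the 13 other settings, Acsl3 kept its call in 5, Col4a3bp in 9, Pip5k1a in 10 and Pik3r1 in 11. Each of these genes, and Impa1, lost it with the correction for GC content and length. Spsb1, a SOCS-box adaptor of protein degradation, was at 669, 606 and 569 in HT males and at 421, 350, 432, 325 and 352 in WT males (0.71 ± 0.17, adjusted p = 0.0421). These were genes chosen from the called set after their values were seen, and no test of the theme was made.

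Genes lower in HT males included markers of astrocytes and vessels. Sox9 (chromosome 11, 112782224 to 112787760), a transcription factor of astrocytes and neural progenitors, was at 346, 417 and 407 in HT males and at 521, 731, 755, 779 and 706 in WT males. The groups did not overlap, and the log2 fold change was -0.83 ± 0.16 (adjusted p = 0.00882), with 0.02 ± 0.14 in females. Sox9 was the only called gene among 20 astrocyte markers, beside 0.261% of all genes. The markers had a median of -0.08. Their summed count lay between 181000 and 194000 in HT males and between 171000 and 184000 in WT males.

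Pdgfrb, the receptor that marks pericytes, was at 721, 728 and 597 in HT males and at 890, 931, 1078, 1252 and 984 in WT males (-0.58 ± 0.11, adjusted p = 0.00882). Cldn5 (chromosome 16, 18776847 to 18778262), the tight junction protein of the blood-brain barrier, was at 940, 816 and 716 in HT males and at 1273, 1225, 1196, 1453 and 1318 in WT males (-0.65 ± 0.15, adjusted p = 0.038). These were 2 of 21 endothelial and mural markers called lower, beside 0.105% of all genes, with 0 called higher. The list median was -0.23 for males (-0.13 without HT vehicle male replicate 2) and 0.03 for females. The summed count of the 21 markers lay between 16400 and 18800 in HT males and between 17600 and 20100 in WT males, ranges that overlap. Lmo2 (chromosome 2, 103957986 to 103981878), a transcriptional bridging factor of blood and endothelial cells, was at 276, 248 and 294 in HT males and at 406, 401, 404, 416 and 445 in WT males, with a log2 fold change of -0.60 ± 0.10 (adjusted p = 0.00688). It had the smallest adjusted p of all genes in males. Vwa1, an extracellular matrix protein of vessels and perichondrium, was at 556, 619 and 525 in HT males and at 864, 943, 866, 1084 and 842 in WT males (-0.69 ± 0.13, adjusted p = 0.00882).

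**Figure D3:**
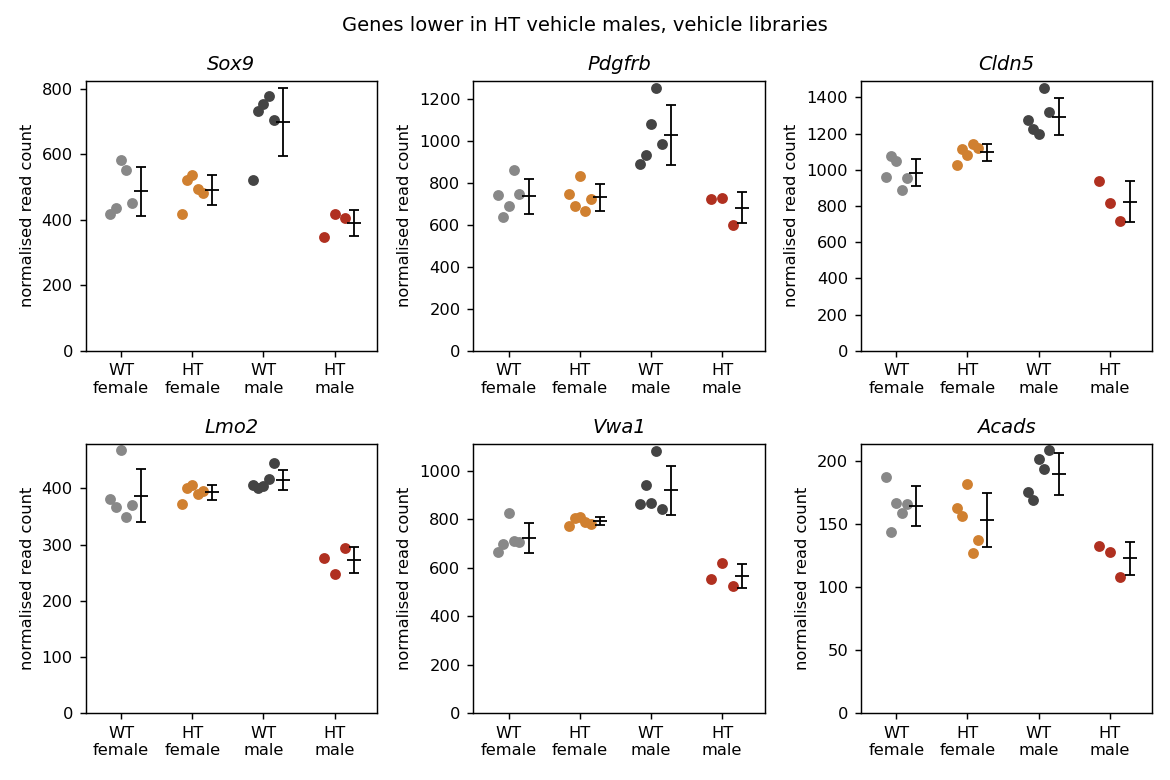
Normalised read counts (y axes, from 0) of Sox9, Pdgfrb, Cldn5, Lmo2, Vwa1 and Acads in each vehicle library by group, with the group mean and SD beside the points. In each panel all 3 HT males lie below all 5 WT males, and HT and WT females overlap.

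Other lower genes act in metabolism, RNA turnover and translation. Acads was at 133, 128 and 108 in HT males and at 176, 169, 202, 194 and 209 in WT males (-0.63 ± 0.12, adjusted p = 0.00882). Zfp36l1 and Zfp36l2, paired RNA-binding proteins that speed the decay of messages with AU-rich elements, were at -0.67 ± 0.14 and -0.54 ± 0.12 (adjusted p = 0.0227 each). Zfp36l1 was at 580, 558 and 458 in HT males and at 649, 800, 839, 1054 and 919 in WT males. Tnfsf10, the death ligand TRAIL, was at 53.5, 33.2 and 29.7 in HT males and at 47.6, 85, 104, 95.8 and 100 in WT males (-1.13 ± 0.26, adjusted p = 0.0369), 1 of 2 lower genes whose groups overlapped. Cdc42ep1 was at 191, 239 and 246 in HT males and at 401, 382, 417, 463 and 400 in WT males (-0.87 ± 0.18, adjusted p = 0.0179).

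Rps10, a protein of the small ribosomal subunit, was at 1840, 1567 and 1545 in HT males and at 2227, 2065, 2295, 2372 and 2382 in WT males (-0.46 ± 0.10, adjusted p = 0.0227). It was the 1 of 77 cytosolic ribosomal protein genes called, beside 0.261% of all genes. In males 75 of the 77 were below 0, with a median of -0.22, while the female median was 0.02. Of the 77, 40 were lower in males at an unadjusted p below 0.05, beside 5.63% of all genes. The male median was -0.12 with a correction for GC content and length. Libraries differed in how their log2 values changed with the GC content of the transcript. The slope per 10 percentage points of GC was 0.058 ± 0.054 (SD, n = 5) in WT males and -0.066 ± 0.07 (SD, n = 3) in HT males, and the ranges of the groups did not overlap (0.012 to 0.134 and -0.147 to -0.019). The median GC content was 45.7% for the called genes higher in HT, 55.2% for those lower and 49.3% for all genes. With the trend of each library on GC content and length removed, males had 20 called genes, 19 of them among the 47. Pik3r1, Impa1, Cldn5, Acads, Rps10, Cdc42ep1 and Zfp36l2 were among those that lost the call, while Klf9, Tsc22d3, Zbtb16, Map3k6, Mc4r, Tlr7, Sox9, Pdgfrb, Lmo2 and Vwa1 kept it. Over all 13 other settings, Zbtb16 kept its call in 10, Map3k6 and Mc4r in 11, and Lmo2 in 13. Klf9, Tsc22d3, Tlr7, Sox9, Pdgfrb and Vwa1 kept theirs in 12.

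Signalling pathways of development tended to lower values in HT males, mostly short of the threshold. Of 17 Wnt targets, 1 was called lower (Sox9), beside 0.105% of all genes. Their median was -0.35, against -0.01 in females and -0.19 in males with the olfactory covariate. Nkd1, a feedback inhibitor of Wnt signalling, was at -0.49 (adjusted p = 0.0574). Of 20 Notch and Hedgehog pathway genes, 19 were below 0 and 0 were called. At an unadjusted p below 0.05, 5 were lower, beside 5.63% of all genes. Their median was -0.25, and -0.14 with the olfactory covariate. On the other side, the 13 GABA-A receptor subunits had a median of 0.24 with 0 called, which was 0.10 with the GC and length correction and 0.13 and 0.15 without HT vehicle male replicate 3 and WT vehicle male replicate 4. Of 53 autism risk genes 0 were called, with a median of 0.08. At an unadjusted p below 0.05, 12 were higher, beside 6.84% of all genes. Among the 12 was the ubiquitin ligase scaffold gene Cul3 (0.35, adjusted p = 0.0684).

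**Figure D4:**
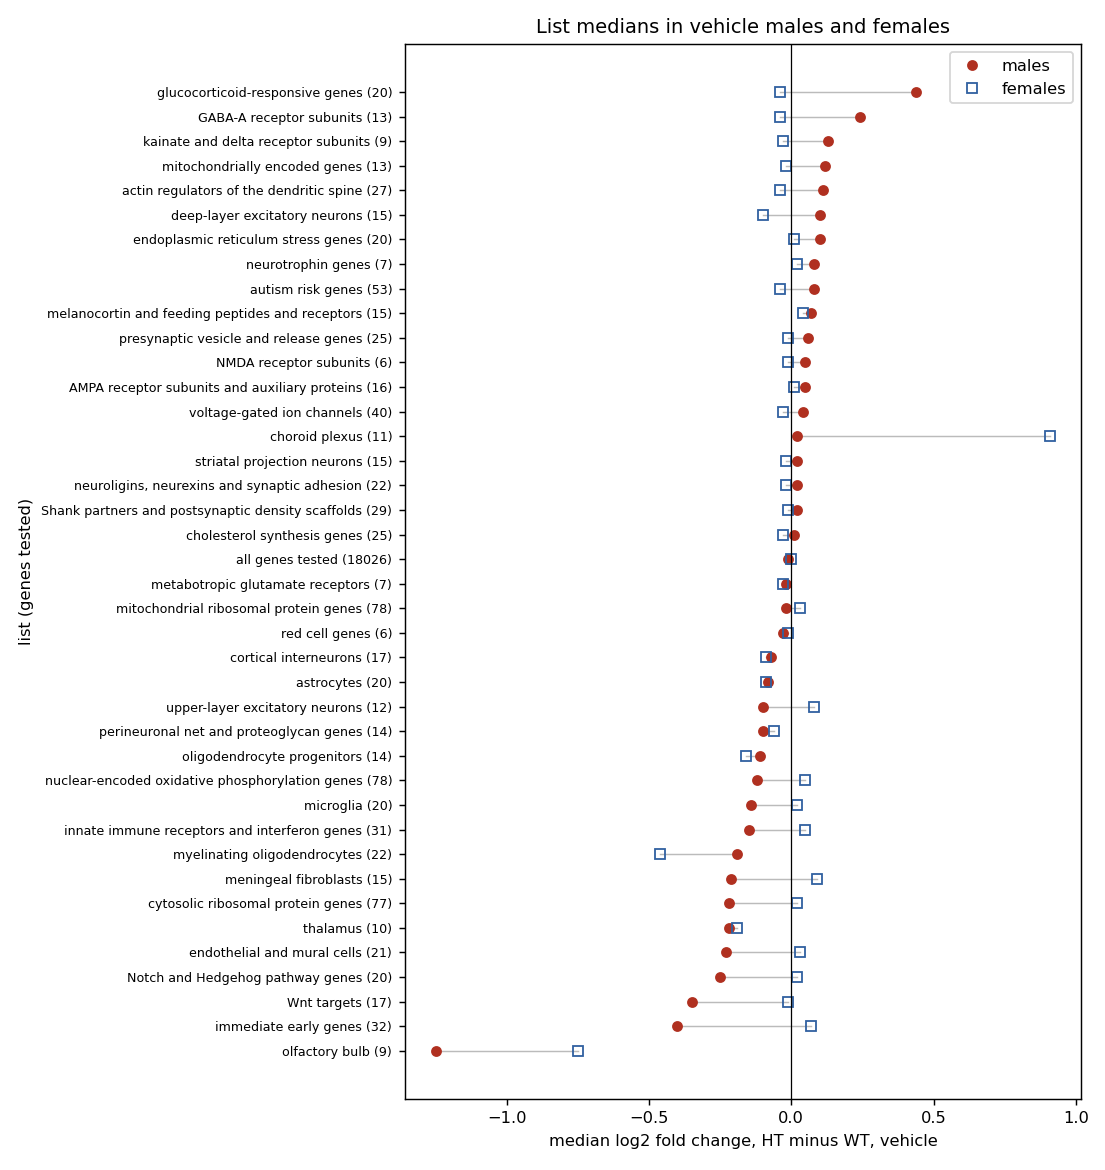
Median log2 fold change of HT over WT under vehicle (x axis) for each gene list (y axis, with the number of genes tested), in males (filled circles) and females (open squares). The glucocorticoid list has the highest male median (0.44), the immediate early list is at -0.40, and the choroid plexus (0.91 in females) and olfactory bulb lists (-1.25 in males) are markers of neighbouring tissue.

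In females no gene was called (0 of 18026, 0%), 385 genes (2.14%) had an unadjusted p below 0.05, and the groups did not overlap in 0.338% of genes (0.155% higher, 0.183% lower). edgeR on the recovered reads called 8 genes in females, all high in HT vehicle female replicate 1. They included Ttr, Folr1, Prlr and Cldn2, which are choroid plexus genes. The smallest limma p belonged to Frem1, an extracellular matrix protein gene, at 268, 166, 144, 141 and 138 in HT and at 123, 115, 116, 127 and 106 in WT (0.49 ± 0.13, adjusted p = 1). All 5 HT females exceeded all 5 WT females. Across the 22 myelin markers the median was -0.46 for females and -0.19 for males, with 0 called in either sex. Mbp, a main protein of the myelin sheath, was at 64115, 30431, 54004, 32816 and 62864 in HT females and between 61210 and 75330 in WT females, with 2 HT libraries below the other 8 of that sex. In males Mbp ran from 37446 to 116779 in WT and from 61328 to 65053 in HT.

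None of the genes called in males was called in females. Of the 28 genes higher in HT males, 8 were above 0 and 19 below in females, with a median of -0.04. Of the 19 lower, 14 were above 0 and 5 below, with a median of 0.07. The direct test of the difference between the sexes called 0 genes (0%) in limma and 0 in edgeR, with 1574 genes (8.73%) at an unadjusted p below 0.05. The smallest adjusted p was 0.0806, shared by Tlr7 (1.29 ± 0.25), Acsl3 (0.49 ± 0.10) and Ccdc6 (0.42 ± 0.09). Vwa1 (-0.83 ± 0.18), Lmo2 (-0.63 ± 0.14) and AW047730 (-0.71 ± 0.15) shared it on the lower side. No gene's genotype effect was thus shown to differ between the sexes at the threshold. Without WT vehicle male replicate 1 the test called 18 genes, and without HT vehicle female replicate 1, HT vehicle male replicate 2 or WT vehicle female replicate 3 it called 3, 4 and 5.

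Drug-treated males allowed the same contrast in libraries that had not chosen the genes. In 19 lithium and fluoxetine males limma called 0 genes (0%) between HT and WT and edgeR 1 predicted gene, while 1515 (8.4%) had an unadjusted p below 0.05. Of the 28 genes higher in HT vehicle males, 9 were above 0 and 18 below, with a median of -0.03. Of the 19 lower, 8 were above 0 and 11 below, with a median of -0.03. Klf9 was at 0.04 ± 0.07, Tsc22d3 at -0.11 ± 0.08, Map3k6 at 0.04 ± 0.15, Mc4r at 0.18 ± 0.19, Sox9 at -0.01 ± 0.10, Lmo2 at -0.03 ± 0.07 and Cldn5 at 0.21 ± 0.09. With drugs and sexes averaged, 0 genes (0%) were called between drug-treated HT and WT mice by limma and 0 by edgeR, with 2133 (11.8%) at an unadjusted p below 0.05. Vehicle minus drug-treated called 0 as well with both tools, with 957 (5.31%) at that p.

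The difference between the genotype effects of vehicle and drug-treated males was fitted after the male calls were known. It called 40 genes (0.222%), 23 higher (0.128%) and 17 lower (0.0943%), and 22 of them were among the 47, whose vehicle libraries this contrast shares. Vwa1 had the smallest adjusted p, at -0.97 (adjusted p = 0.00225). Acads was at -0.83 (0.00371), Pdgfrb at -0.72 (0.00559), Zfp189 at 1.25 (0.0201), Cldn5 at -0.86 (0.0209), Zbtb16 at 0.76 (0.0222), Tsc22d3 at 0.72 (0.0222) and Sox9 at -0.82 (0.0364). Fkbp5, which missed the threshold within vehicle males, was at 1.04 (adjusted p = 0.0488). In drug-treated males HT minus WT was 0.28 for Vwa1, 0.21 for Acads and Cldn5, 0.14 for Pdgfrb, -0.19 for Zfp189 and -0.14 for Zbtb16. It was -0.11 for Tsc22d3, -0.01 for Sox9 and -0.26 for Fkbp5. Of these genes only Sox9 had the sign it had in vehicle males, and none was called in drug-treated males. The count was 0 without HT vehicle male replicate 3, 17 without HT vehicle male replicate 2, and 70, 14, 7 and 16 without WT vehicle male replicate 1, 3, 4 and 5. It was 21 to 26 without HT fluoxetine male replicate 4, HT lithium male replicate 3 or 4 or WT lithium male replicate 4 or 5, and 62 without WT fluoxetine male replicate 5.

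The levels behind these differences were not alike from gene to gene. Klf9 was at 9222 ± 1079 (SD, n = 3) in HT vehicle males and at 6229 ± 996.8 (SD, n = 5) in WT vehicle males, and the 10 other group means lay between 6970 and 8034, so HT was above and WT below all of them. In vehicle males Tsc22d3 was at 1461 ± 143.6 (SD, n = 5) in WT and at 2225 ± 210.5 (SD, n = 3) in HT. It was at 2290 ± 443.5 (SD, n = 5) in WT lithium males, 2113 ± 156.2 (SD, n = 4) in HT lithium males, 2051 ± 279.8 (SD, n = 5) in WT fluoxetine males and 1882 ± 319.6 (SD, n = 5) in HT fluoxetine males. The HT vehicle males thus lay within the range of the drug-treated means and the WT vehicle males below it. Map3k6 had the same order, at 60.58 ± 19.49 (SD, n = 5) in WT and 132.8 ± 8.838 (SD, n = 3) in HT under vehicle, and between 101.1 and 148.1 in the means of the drug-treated male groups. Under vehicle Sox9 was at 698.3 ± 102.8 (SD, n = 5) in WT and at 390.2 ± 38.23 (SD, n = 3) in HT males, and the 10 other group means lay between 470.5 and 587, so both groups stood outside the rest.

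Over the 12 group means, WT vehicle males were lowest in 20 of the 28 higher genes and HT vehicle males highest in 17, with both true in 11. Of the 19 lower genes, HT vehicle males were lowest in 18 and WT vehicle males highest in 15, with both true in 14. Since these 2 groups chose the genes, the counts are a description.

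**Figure D5:**
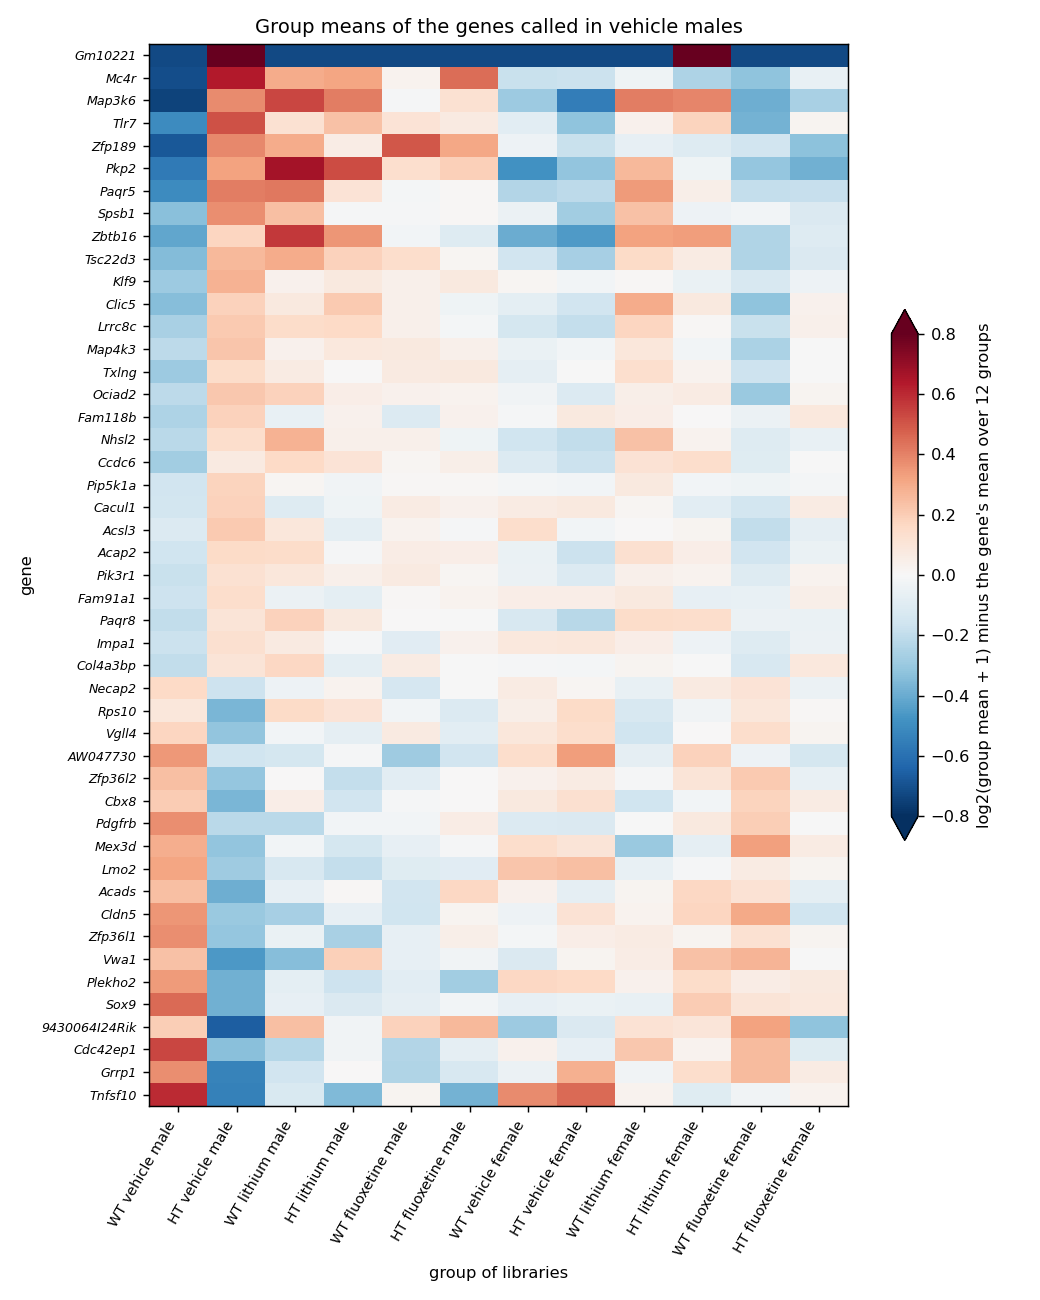
Colour shows log2 of each group's mean + 1 minus the gene's mean over the 12 groups (colour scale, from -0.8 to 0.8, values beyond it drawn at its ends) for the 47 genes called in vehicle males (y axis) in each group of libraries (x axis). The columns of WT and HT vehicle males at the left carry opposite colours by choice of the genes, and the 10 other columns are mostly paler.

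The genes called in vehicle males were read in fluoxetine-treated females too, which share no library with them, a comparison chosen after its values were seen. There HT and WT females differed in 461 genes (2.56% called, 1.73% higher and 0.827% lower). Of the 28 genes higher in HT vehicle males, 23 were above 0 in fluoxetine females with a median of 0.13, and 3 were called. Of the 19 lower genes, 17 were below 0 with a median of -0.15, and 2 were called. The called ones included Clic5, an intracellular chloride channel family gene, Ociad2 and Col4a3bp on the higher side and Cldn5 on the lower. Klf9 was at 0.09 ± 0.09, Tsc22d3 at 0.13 ± 0.11 and Sox9 at -0.02 ± 0.14 in those females, and none of them was called. The level of the immediate early genes averaged -0.29 ± 0.21 (SD, n = 5) over the HT and 0.33 ± 0.20 (SD, n = 5) over the WT fluoxetine females, and the slope with GC content per 10 percentage points was -0.004 ± 0.056 and 0.097 ± 0.063. For both measures HT was below WT, as in vehicle males, and their part in these signs was not tested. In lithium females 6 of the 28 were above 0 and 4 of the 19 below.

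Genes next to Shank3 on chromosome 15 were examined as well. Within 5 Mb, 79 genes were tested with 0 called in vehicle mice, and 7.59% had an unadjusted p below 0.05 with the sexes averaged, beside 6.21% of all genes. In males it was 8.86% beside 12.5%. The smallest p of these neighbours belonged to a processed pseudogene, and the smallest of a protein-coding gene to Rtl6 (-0.15), with neither called. Cdc42ep1 and Fam91a1 were the 2 called genes on the chromosome in males, and both lie more than 10 Mb from Shank3.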

How the data were processed

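Prefrontal cortex RNA libraries (TruSeq Stranded mRNA) were used as a single deposited table of gene-level values. Per the submitters' processing notes, Salmon 0.11.2, R 3.6.0 and DESeq2 1.19.11 were used with GRCm38. The deposited signal values are read counts divided by a size factor of each library by the authors, as read from the values: 100% of them gave whole reads, within 1e-06, once rescaled. Of 59 columns, 56 matched a sample, 3 matched none and were not used, and 1 of 57 samples was not analysed here. Of 18088 genes, 18077 had a GENCODE M21 symbol. Replicate libraries all differed beyond sampling noise.

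The 18026 genes that reached 10 in 3 or more libraries were tested on log2(value + 1) with limma 3.58.1 (R 4.3.3), with a trend, the 12 groups in 1 fit and 44 residual degrees of freedom. Fold changes are on that scale, which understates those of low genes. Adjusted p-values are Benjamini-Hochberg over all tested genes of a contrast. As an alternative the recovered reads were tested with edgeR 4.0.16, with TMM factors and the quasi-likelihood test. A list level is the mean over its genes of log2 values relative to the gene's mean. The limma fit was tested on simulated data, for the vehicle contrasts with the sexes averaged and in males. The edgeR test was not. The simulated counts were drawn independently for each gene and library. They held no variation shared by the genes of a library, such as the immediate early level or the GC slope, so they do not test the calls against it.

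The members, the lists and Map3k6's place on the glucocorticoid list were chosen with earlier results of these data known. Named genes were Shank3, the 15 of smallest p on each side with the sexes averaged, genes called in males, the 8 of smallest p on each side in females and for the sex difference, up to 4 (scaffolds, 8) of smallest p per list, and up to 6 neighbours of Shank3. Predicted genes were counted, not named, some genes are not reported here, and Arc, Fkbp5, Sgk1, Sult1a1, Shank1, Shank2, Dlg4, Fos, Mbp and Per1, Cdkn1a, Mt1 and Arl4d were added after their values were seen. Alternatives planned were no trend, TMM factors, no filter, a pseudocount of 5, compared groups only, a replicate block, array weights, olfactory and myelin covariates, a GC and length correction (splines with 4 degrees of freedom), edgeR and leaving out libraries. The choroid plexus and immediate early covariates, the vehicle minus drug-treated male contrast and leaving out drug-treated libraries were added after seeing the data. Promoter sequences are from RefSeq (GRCm38.p6).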

Additional observations from a re-analysis of the deposited data

Results flagged for a closer look

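Single libraries stood far from the rest of their group in 12 of 117 groups of values examined, where chance flags about 1 in 20. HT vehicle males, with 3 libraries, were too few for this test and were not examined. HT vehicle female replicate 1 held 50312 normalised counts of Ttr, the next library 61.5, and its choroid plexus level on the log2 scale was 4.99 against 0.31 for the next. Its Map3k6 was 99.6 against 65.6 and its Frem1 268 against 166. WT vehicle male replicate 1 had Fkbp5 at 1298 against 705 in the next of its group, Sox9 at 521 against 706 and Arc at 952 against 4822, in each case nearer to the HT males. WT vehicle female replicate 3 had Lmo2 at 468 against 381, Vwa1 at 827 against 712 and an olfactory level of -2.42 against 0.81. WT vehicle female replicate 1 had Ttr at 11 against 3.46, and WT vehicle female replicate 5 an endothelial and mural level of -0.30 against -0.05.

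The genotype effect of vehicle males differed from that of drug-treated males, by the limma interaction, in 23 of the genes given. The differences in log2 fold change were 1.25 for Zfp189, 1.24 for Sult1a1, 1.04 for Fkbp5, 1.03 for Tlr7, 0.83 for Spsb1, 0.76 for Zbtb16, 0.72 for Tsc22d3, 0.62 for Bicd1, 0.50 for Ociad2, 0.45 for Col4a3bp, 0.42 for Acsl3, 0.39 for Acap2 and 0.36 for Pik3r1, Ccdc6 and Paqr8 on the higher side. On the lower side they were -1.07 for Cdc42ep1, -0.97 for Vwa1, -0.86 for Cldn5, -0.83 for Acads, -0.82 for Sox9, -0.75 for Nkd1, -0.72 for Pdgfrb and -0.58 for Lmo2. Most of these genes had been chosen for their difference in vehicle males.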

How the results depend on the processing

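The 47 calls in vehicle males became 131 with the olfactory covariate, 3 with the immediate early covariate, 960 with array weights and 20 with the GC and length correction, and 1 to 86 with a library left out. Those genes kept their call under all 13 other settings in 2 cases, Lmo2 and Zfp189. With the compared groups only, many of the 47 lost it, among them Map3k6, Zbtb16, Ccdc6, Vgll4, Zfp36l1, Tnfsf10, Col4a3bp and Acsl3. Klf9, Tsc22d3, Mc4r, Tlr7, Sox9 and Pdgfrb kept their call there. With the sexes averaged, the compared groups alone gave 1 call, array weights 2, edgeR 1 and libraries left out 0 to 1. In females edgeR gave 8 calls and libraries left out 0. The difference of the sexes had 6 calls with the compared groups only, 151 with array weights, 4 with the myelin covariate, 6 with the choroid plexus covariate, 3 with the GC and length correction and 0 to 18 with a library left out. The drug-treated comparison had 523 calls with array weights and 0 to 54 with a library left out (54 without WT fluoxetine female replicate 5). Vehicle minus drug-treated had 1 with the olfactory covariate, 2 with array weights and 0 with any library left out. Drug-treated males had 131 with array weights, 1 with each of the compared groups only, the olfactory covariate, the GC and length correction and edgeR, and 0 to 3 with a library left out. Vehicle minus drug-treated males had 120 with the olfactory covariate, 693 with array weights, 12 with the GC and length correction and 0 to 70 with a library left out. Array weights were estimated from the same libraries. The log2 value of Shank3 changed sign to -0.04 with the olfactory covariate (sexes averaged) and, in males, to 0.01 with array weights, 0.02 with the immediate early covariate, 0.13 with the GC and length correction, and 0.01 to 0.02 without WT vehicle male replicate 3 or HT vehicle male replicate 3. The cause of these changes was not tested. At 3 libraries in 1 group, differences smaller than those called may not have been detectable.

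Replicate numbers did not pair the libraries: same-numbered libraries of different vehicle groups had a median correlation of deviations of 0.01 (24 pairs), other pairs 0 (96 pairs), and 6 of 18 libraries correlated best with their own number. With the replicate block the calls in vehicle males were 21, all among the 47.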

Other observations

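Among lists not described above, 66 of 78 nuclear-encoded oxidative phosphorylation genes were below 0 in vehicle males, with a median of -0.12, and 58 were above 0 in vehicle females, with a median of 0.05. Over all genes 48.3% were above 0 in males and 49.7% in females. The male median of the list was -0.03 with the GC and length correction, and between -0.18 and -0.06 with any 1 library left out. The 27 actin regulators of the dendritic spine had 21 above 0 in males (median 0.11) and 7 above 0 in females (median -0.04). Upper-layer neuron markers had a median of -0.10 in males and 0.08 in females, and deep-layer markers 0.10 and -0.10. No gene of these lists was called in either sex.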
